A study of Mus musculus with 6 samples.

Results

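The genes that lie within 2 Mb of Nr0b2 on mouse chromosome 4 were compared between the livers of SHP-/- and wild-type mice. Nr0b2 encodes SHP, an orphan nuclear receptor that lacks a DNA-binding domain and represses other transcription factors. The neighbours were taken by position and by filled counts. For each, the midpoint lay within 2 Mb of the Nr0b2 locus on mm9 coordinates, and the 6 counts in the deposited table were filled. All 19594 genes with filled counts held at least 1 count, so genes with none could not be neighbours. Nr0b2 itself was left out. Of 131 other genes listed in that window, 97 met the rule, out of 19594 genes with counts in the whole table, and the remaining 34 had empty cells. Of the 97, 52 lay at lower coordinates than Nr0b2 and 45 at higher ones.

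The study sequenced liver RNA of 3 SHP-/- and 3 wild-type male mice, all 2 months old and labelled with a C57BL6 background. RNA was selected by its 5′ cap with an EIF4E variant, so the values describe the RNA kept by that selection. The labels do not describe the targeted allele or the breeding of the mice, and they name no sorting of cells. Totals over genes ran from 4494353 to 7225842 counts in SHP-/- libraries and from 4982530 to 6155064 counts in wild-type libraries. Mitochondrially encoded genes took 5.66% to 7.10% of counts in SHP-/- libraries and 10.2% to 10.3% in wild-type libraries. Leaving those genes out of the totals and of the fit changed no count of neighbours called (4 higher and 6 lower). Samples were run 3 to a lane and the labels do not say which shared one, so a lane effect and a genotype effect cannot be told apart. Levels are given as CPM, counts scaled to library totals of equal size (trimmed mean of M values scaling). Hepatocyte markers were abundant in every library, with summed levels of 71920 to 79031 CPM in SHP-/- livers and 65164 to 85770 CPM in wild-type livers. Of those 7 markers, 1 was called lower and 0 higher.

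Genes that adjoin each other on a chromosome need share no function, and this stretch of chromosome 4 holds enzymes, kinases, splicing factors, chromatin proteins, ion transporters and genes of blood cells side by side. Neighbours can still have elements in common: divergent or overlapping transcripts, enhancers that reach several promoters, and a shared stretch of inherited DNA. In a mouse with an engineered mutation, the genes around the altered locus are inherited together with it. Liver is known above all for metabolism and for secreting plasma proteins, and most genes of this stretch are expressed in many tissues.

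Nr0b2, at 133109291 to 133112451 on the plus strand, had 29, 36 and 77 counts in SHP-/- livers and 104, 59 and 85 counts in wild-type livers. That is 8.01 ± 2.03 CPM in SHP-/- livers and 14.5 ± 2.88 CPM in wild-type livers (SD, n = 3 each), a log2 difference of −0.81 ± 0.25 (SE; limma voom, adjusted p = 0.0443). Every SHP-/- library lay below every wild-type library, and transcripts remained in all 3. The call was kept when SHP-/- library 3 was left out (limma voom, adjusted p = 0.0351) and lost when any other library was, with adjusted p from 0.0548 to 0.124 and log2 differences from −0.90 to −0.65.

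The promoter of Nr0b2 is printed with those of the 2 neighbours whose levels differed most in each direction, Extl1 and AL805897.2 (named Snhg3 in a later annotation). These are RefSeq sequences on GRCm38.p6, whose coordinates differ from the mm9 ones used elsewhere. Each runs 5′ to 3′ on its gene's strand, from 250 bases before a RefSeq transcript start to 50 after it. By the shift between coordinates at Nr0b2 and Snhg3, the Extl1 start lies inside the mm9 span counted, downstream of its 5′ end. The Extl1 sequence thus need not be the promoter of the RNA counted. They lie at chr4:133553126-133553425 (Nr0b2, plus strand), chr4:134372498-134372797 (Extl1, minus strand) and chr4:132353637-132353936 (Snhg3, minus strand). Capitals mark the motifs found on either strand, among 4 that were searched. The longest was CAAGGTCA, the site bound by NR5A receptors such as LRH-1, a partner of SHP. It contains AGGTCA, the core element of many nuclear receptors, which was also searched alone. The E-box searched, a site of bHLH factors, was CACGTG. The TATA box, a core promoter element, was searched as TATAAA.
Nr0b2: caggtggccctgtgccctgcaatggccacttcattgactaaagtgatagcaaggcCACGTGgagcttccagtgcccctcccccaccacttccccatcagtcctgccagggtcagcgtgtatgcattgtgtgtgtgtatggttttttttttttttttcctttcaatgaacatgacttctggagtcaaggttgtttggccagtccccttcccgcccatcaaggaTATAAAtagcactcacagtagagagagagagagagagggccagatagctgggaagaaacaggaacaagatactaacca
Extl1: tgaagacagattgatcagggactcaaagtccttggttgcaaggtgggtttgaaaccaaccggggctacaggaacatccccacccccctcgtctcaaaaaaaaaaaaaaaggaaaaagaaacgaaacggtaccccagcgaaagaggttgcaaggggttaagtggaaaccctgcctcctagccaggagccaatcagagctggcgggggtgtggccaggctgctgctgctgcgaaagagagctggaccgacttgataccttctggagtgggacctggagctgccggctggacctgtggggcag
Snhg3: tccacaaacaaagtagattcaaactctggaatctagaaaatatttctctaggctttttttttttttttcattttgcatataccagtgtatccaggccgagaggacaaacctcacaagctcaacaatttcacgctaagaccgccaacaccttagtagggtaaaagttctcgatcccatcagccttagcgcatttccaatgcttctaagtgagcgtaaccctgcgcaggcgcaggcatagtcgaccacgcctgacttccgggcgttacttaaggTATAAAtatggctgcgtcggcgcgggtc

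Only the exact letters of each motif were searched, so variants of a site were not counted. The Nr0b2 promoter held the E-box and the TATA box. The Snhg3 promoter held the TATA box, and that of Extl1 held none of the 4 motifs. The RefSeq table held 94 promoters for 75 of the 97 neighbours. AGGTCA was in 14.9% of these promoters, against 16.3% of all 32851 promoters in the table. CACGTG was in 9.57% of the neighbours' promoters and 7.15% of all, TATAAA in 5.32% and 13.6%, and CAAGGTCA in 0 and 1.56%. The 12 promoters found for 8 of the neighbours called below held TATAAA in 1 case and none of the other motifs. The Extl1 promoter was 55.3% G and C with 9 CpG dinucleotides, that of Snhg3 46.0% with 16, and that of Nr0b2 49.7% with 3. The median over all promoters was 52.7% and 7.

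Of the 97 neighbours, 59 had enough counts to be tested, and 10 of these differed at an adjusted p under 0.05. The 4 higher in SHP-/- liver included Extl1, Rps6ka1 and Mecr. Ccdc21, Srrm1, Wdtc1, Sfrs4, AL805897.2 and Tmem50a were lower. The share called was 16.9% of tested neighbours (10 of 59), against a background of 14.5% over all 11794 genes tested (limma voom, Benjamini-Hochberg adjustment over all of them). By direction, 6.78% of tested neighbours were called higher, against 7.58% of all genes, and 10.2% lower, against 6.94%. The share called in all was near the background, while that called lower (6 of 59) was above it. Outside the window on chromosome 4, genes called lower were 11 of 77 tested from 2 to 5 Mb from Nr0b2. They were 5 of 81 from 5 to 10 Mb and 52 of 577 on the rest. These differences of shares were not tested. The background also moved in the fit without wild-type library 3, which had fewer libraries and a low-count filter relaxed to match. There, 14.8% of 61 tested neighbours and 5.16% of 12025 tested genes were called. At an unadjusted p under 0.05 there were 18 neighbours (30.5%), against 30.6% of all genes. Calls of at least 2-fold numbered 3 (5.08%), against 3.19%. On chromosome 4 outside the window that share was 6.49% from 2 to 5 Mb, 8.64% from 5 to 10 Mb and 5.37% on the rest. The groups did not overlap for 26 tested neighbours (44.1%), against 35.1% of all genes. The median log2 difference was −0.10 for the 59 neighbours and −0.0064 for all genes, and the median size, without sign, was 0.29 for both.

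**Figure D1:**
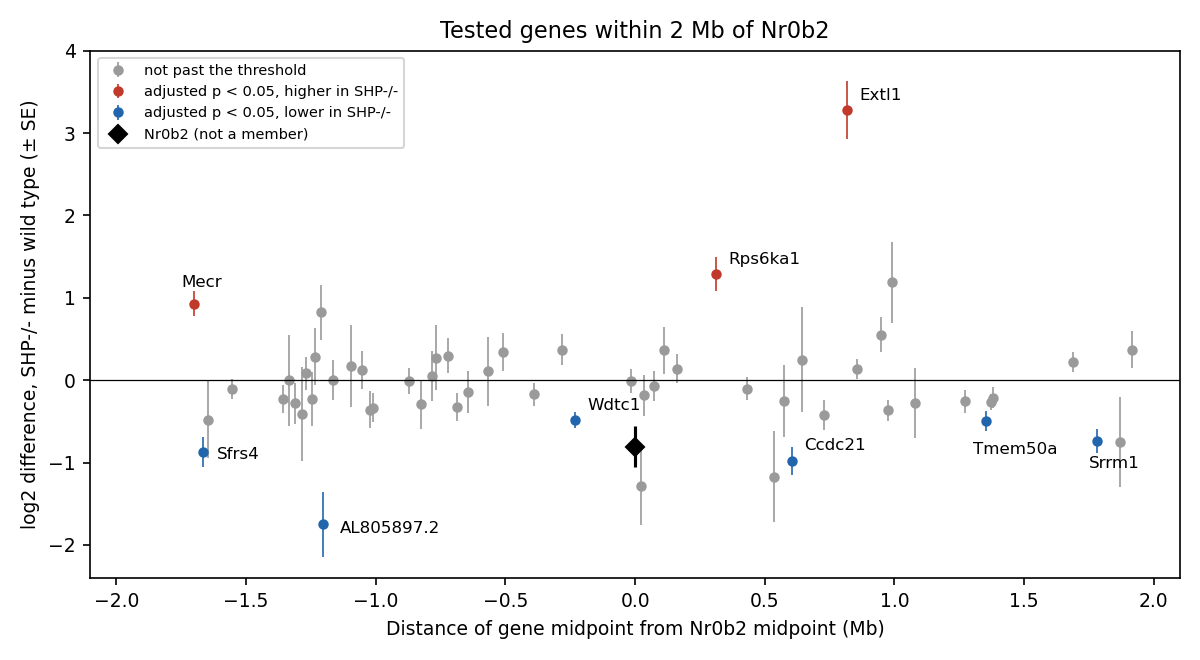
Log2 difference, SHP-/- minus wild type, with its standard error, against distance from Nr0b2 in Mb, for 57 tested neighbours (circles) and for Nr0b2 (diamond). The 3 red and 6 blue points are the genes called higher and lower. They stand at scattered distances on both sides, and some grey genes lie farther from 0 than some called ones. Extl1 at 3.28 is the farthest from 0.

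Extl1 had the largest difference. It encodes an exostosin-like glycosyltransferase of heparan sulfate synthesis and lies 815 kb from Nr0b2, at 133912287 to 133939765 on the minus strand. Its levels were 24.7, 21.6 and 20.9 CPM in SHP-/- livers, against 3.58, 1.45 and 1.91 CPM in wild-type livers. The 3 SHP-/- livers were close to each other and far above the wild-type livers, of which library 1 was the highest. Extl1 thus differed by 3.28 ± 0.36 on the log2 scale (SE), or 9.71-fold (limma voom, adjusted p = 0.000129), from 108, 110 and 156 counts in SHP-/- livers and 21, 7 and 12 counts in wild-type livers. Without any single library it stayed between 3.06 and 3.63 and past the threshold. The flanking tested genes were not called. Pdik1l, 68.5 kb away, had a log2 difference of −0.42 ± 0.18 (limma voom, adjusted p = 0.135), and Pafah2, 12.5 kb away, one of 0.13 ± 0.12 (limma voom, adjusted p = 0.498). Slc30a2, a zinc transporter gene 794 kb from Nr0b2, had too few counts to test, with 2, 2 and 1 in SHP-/- livers and 0 in each wild-type liver.

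Rps6ka1, which encodes the kinase RSK1 downstream of ERK, was the nearest gene called higher, 313 kb from Nr0b2 (133403200 to 133443709, minus strand). It stood at 22.8, 22.4 and 23.1 CPM in SHP-/- livers, against 7.34, 11.4 and 9.85 CPM in wild-type livers. The SHP-/- livers were close to each other, with an SD of 0.355 CPM (n = 3), and none overlapped a wild-type liver. Rps6ka1 differed by 1.29 ± 0.20 on the log2 scale (limma voom, adjusted p = 0.00142), or 2.44-fold. Its neighbours Arid1a and Dhdds had log2 differences of 0.14 ± 0.17 and −0.10 ± 0.14 and were not called. Rps6ka1 shares its span with AL837508.1 on its own strand, which had empty cells, and with AL837508.2 on the other strand, which held 0, 1 and 6 counts in SHP-/- livers and 0, 2 and 0 in wild-type livers.

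Mecr and Sfrs4 lie side by side, 5.83 kb apart and both on the plus strand, and differed in opposite directions. Mecr encodes the enoyl reductase of mitochondrial fatty acid synthesis; it lies at 131399385 to 131423701, 1699 kb from Nr0b2. Mecr had 36.8, 40.3 and 36.0 CPM in SHP-/- livers, against 18.6, 23.1 and 18.3 CPM in wild-type livers. Sfrs4 (now Srsf4), an SR protein of pre-mRNA splicing at 131429532 to 131457621, had 13.2, 11.6 and 16.6 CPM in SHP-/- livers, against 24.1, 26.2 and 27.2 CPM in wild-type livers. In neither gene did the groups overlap. The log2 differences were 0.93 ± 0.15 for Mecr (adjusted p = 0.00196) and −0.88 ± 0.18 for Sfrs4 (adjusted p = 0.00735), both by limma voom. Of the 10 called genes, these were the only ones with a called gene as their next tested neighbour. Sfrs4 overlaps AL607088.3 on the other strand, which had a log2 difference of −0.48 ± 0.47 and was not called.

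**Figure D2:**
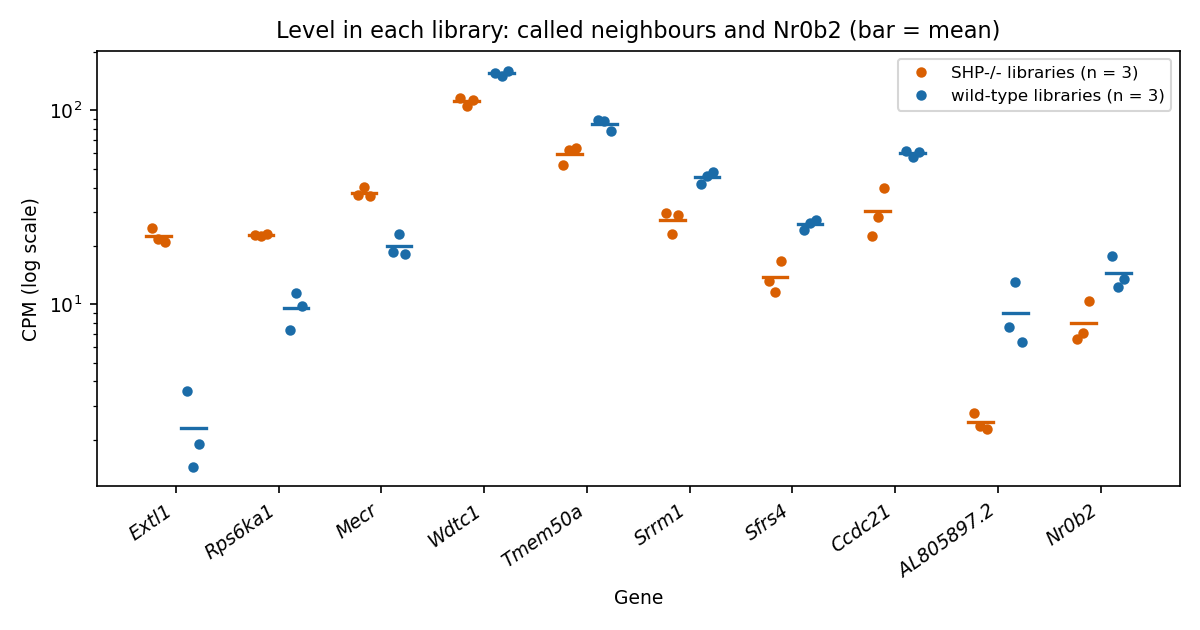
Level in each library, in CPM on a log scale, of 9 called neighbours and Nr0b2, with SHP-/- libraries in orange at the left of each pair and wild-type libraries in blue. Points are libraries (n = 3 per group) and bars are means. In all 10 genes plotted the points of the groups do not overlap, and the gap is widest for Extl1.

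Among the genes called lower, AL805897.2 had the largest difference. It is the host transcript of small nucleolar RNAs (Snhg3), at 131903929 to 131909601 and 1204 kb from Nr0b2. It had 2.74, 2.36 and 2.28 CPM in SHP-/- livers, against 7.68, 13.1 and 6.35 CPM in wild-type livers. Wild-type library 2 was the highest and no libraries of the groups overlapped. On the log2 scale the gene differed by −1.75 ± 0.40 (limma voom, adjusted p = 0.0112), from 12, 12 and 17 counts in SHP-/- livers and 45, 63 and 40 in wild-type livers. The gene overlaps Rcc1, a nucleotide exchange factor for the GTPase Ran, on the same strand. That is an overlap of gene spans; whether exons overlap on mm9 was not examined, so the split of counts between the 2 genes is uncertain. Rcc1 itself stood at 6.23 ± 1.80 CPM in SHP-/- livers and 3.47 ± 0.598 CPM in wild-type livers (SD, n = 3 each), a log2 difference of 0.82 ± 0.34 that was not called (limma voom, adjusted p = 0.117). Both also overlap SNORA73, which had 2, 3 and 2 counts in SHP-/- livers and 0, 7 and 8 in wild-type livers. CR752656.1 (Snhg12), a second host transcript of small nucleolar RNAs in the window, had a log2 difference of −0.23 ± 0.33 and was not called.

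Ccdc21 (now Cep85), which encodes a centrosomal protein, lies at 133685773 to 133743027, 604 kb from Nr0b2. It had 22.6, 28.1 and 40.0 CPM in SHP-/- livers, against 62.1, 57.8 and 60.8 CPM in wild-type livers. The SHP-/- livers spread more than the wild-type ones, with library 3 the highest, and still lay below all of them. Ccdc21 differed by −0.98 ± 0.17 on the log2 scale (limma voom, adjusted p = 0.00279). It ran from −1.24 to −0.81 when 1 library was left out and stayed past the threshold.

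Wdtc1, the mouse counterpart of the fly gene adipose, which limits fat storage, was the called gene closest to Nr0b2, at 232 kb (132848374 to 132909396, minus strand). It had 116, 105 and 114 CPM in SHP-/- livers, against 156, 151 and 161 CPM in wild-type livers. Spread within each group was small and the groups did not overlap. Wdtc1 differed by −0.49 ± 0.10 on the log2 scale (limma voom, adjusted p = 0.00718). Tmem222, the next tested gene at lower coordinates, had a log2 difference of the opposite sign, 0.37 ± 0.19, and was not called.

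Srrm1 is a coactivator of pre-mRNA splicing at 134876399 to 134909236, 1782 kb from Nr0b2. It had 29.7, 23.2 and 28.7 CPM in SHP-/- livers, against 41.8, 46.1 and 48.1 CPM in wild-type livers. The groups were well apart, with a log2 difference of −0.74 ± 0.14 (limma voom, adjusted p = 0.00510). Tmem50a, a membrane protein gene beside Rhd at 134453764 to 134470939, had 52.5, 62.7 and 64.3 CPM in SHP-/- livers, against 88.9, 87.7 and 78.1 CPM in wild-type livers. Its log2 difference was −0.50 ± 0.12 (limma voom, adjusted p = 0.0156), and the call was lost without SHP-/- library 1 or wild-type library 2 (adjusted p up to 0.0671). Extl1, Rps6ka1, Mecr, Ccdc21, Srrm1, Wdtc1, Sfrs4 and AL805897.2 kept their calls in each of the 6 fits without 1 library.

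In the authors' deposited table, which pools the libraries of a group, the log2 ratios of the 10 genes had the same signs and ran from −1.80 for AL805897.2 to 3.18 for Extl1.

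**Figure D3:**
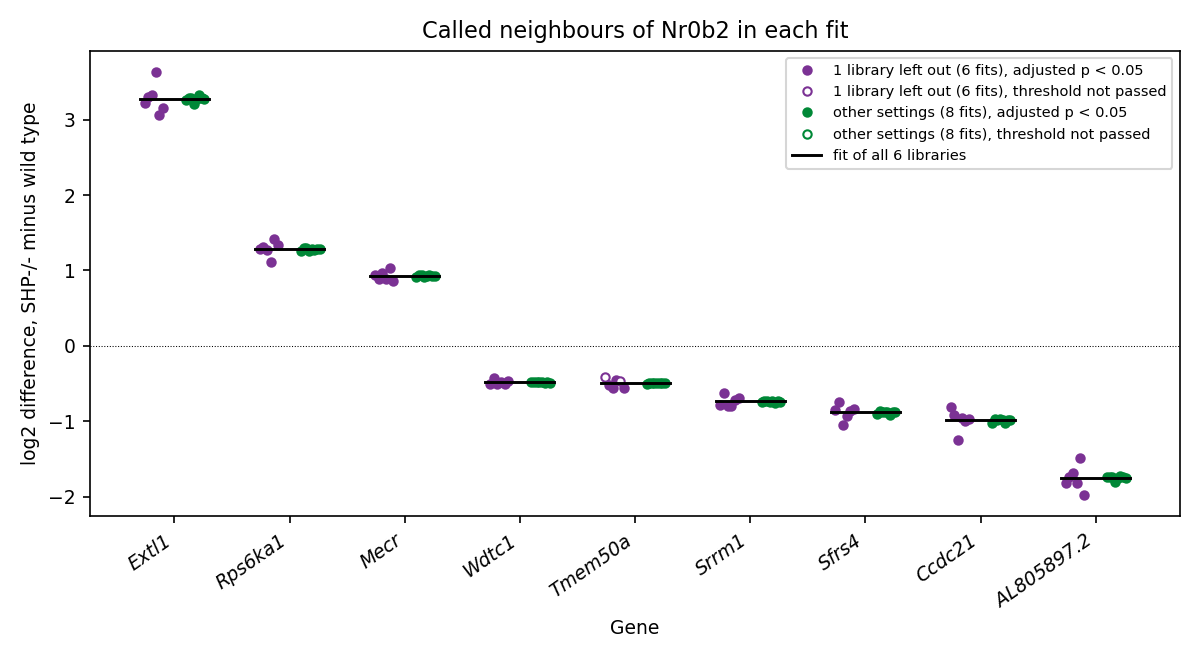
Log2 difference, SHP-/- minus wild type, of 9 called neighbours in the fit of all 6 libraries (black line), in 6 fits that left out 1 library (purple) and under 8 other settings (green). Open circles did not pass the threshold. They occur for Tmem50a (2 purple), and no point changed sign.

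None of the 10 genes nearest to Nr0b2, 5 on each side, was called. Nudc, a dynein-associated protein gene 15.7 kb away, stood at 32.7 ± 3.42 CPM in SHP-/- livers and 32.4 ± 3.04 CPM in wild-type livers (SD, n = 3 each). Gpatch3, 24.5 kb away on the other side, had 0.685, 3.14 and 3.22 CPM in SHP-/- livers, against 5.46, 4.36 and 6.19 CPM in wild-type livers. Its groups did not overlap, but the log2 difference of −1.28 ± 0.48 was not called (limma voom, adjusted p = 0.0872), and SHP-/- library 1, with 3 counts, was the lowest. Without that library the log2 difference was −0.74 (limma voom, adjusted p = 0.253), and over the 6 fits without 1 library it ran from −1.69 to −0.74. Gpn2, a GTPase gene 33.1 kb away, and Zdhhc18, a palmitoyltransferase gene 72.8 kb away, had log2 differences of −0.18 ± 0.25 and −0.07 ± 0.19. Of the 10 nearest neighbours, 5 had too few counts to test. Fam46b, Trnp1 and AL627228.1 had 2 counts each over the 6 libraries, in 1 library apiece. The gene 1810019J16Rik had 6 to 8 counts in SHP-/- livers and 6 to 11 in wild-type livers. Sfn, the 14-3-3 sigma gene, had 2, 2 and 1 in SHP-/- livers and 0, 0 and 5 in wild-type livers.

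The share of calls did not run in one direction with distance from Nr0b2. Within 0.5 Mb, 2 of 12 tested neighbours were called (16.7%), from 0.5 to 1 Mb 2 of 19 (10.5%), and from 1 to 2 Mb 6 of 28 (21.4%). Beyond the window the shares were 18 of 77 (23.4%) from 2 to 5 Mb, 14 of 81 (17.3%) from 5 to 10 Mb, 94 of 577 (16.3%) on the rest of chromosome 4 and 1576 of 10999 (14.3%) on other chromosomes. On the side of lower coordinates 1 gene was called higher and 3 lower of 32, and on the other side 3 and 3 of 27. Across the 59 genes, which share the same 6 libraries, Spearman's rho between distance and the size of the log2 difference was 0.0860, given as a description. Each called gene has a next tested gene on either side, 20 pairs in all; in 9 pairs the log2 differences had the same sign, and in 2 (Mecr and Sfrs4, seen from each) both were called. At the edges of the window, the outermost neighbours Ptpru and 4930555I21Rik had too few counts to test. Just outside the upper edge lay Grhl3, also too low to test. Beyond the lower edge the next tested gene was Laptm5, at −2.63 Mb from Nr0b2. Laptm5 had 18.4 ± 3.42 CPM in SHP-/- livers and 14.8 ± 2.34 CPM in wild-type livers (SD, n = 3 each) and was not called.

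**Figure D4:**
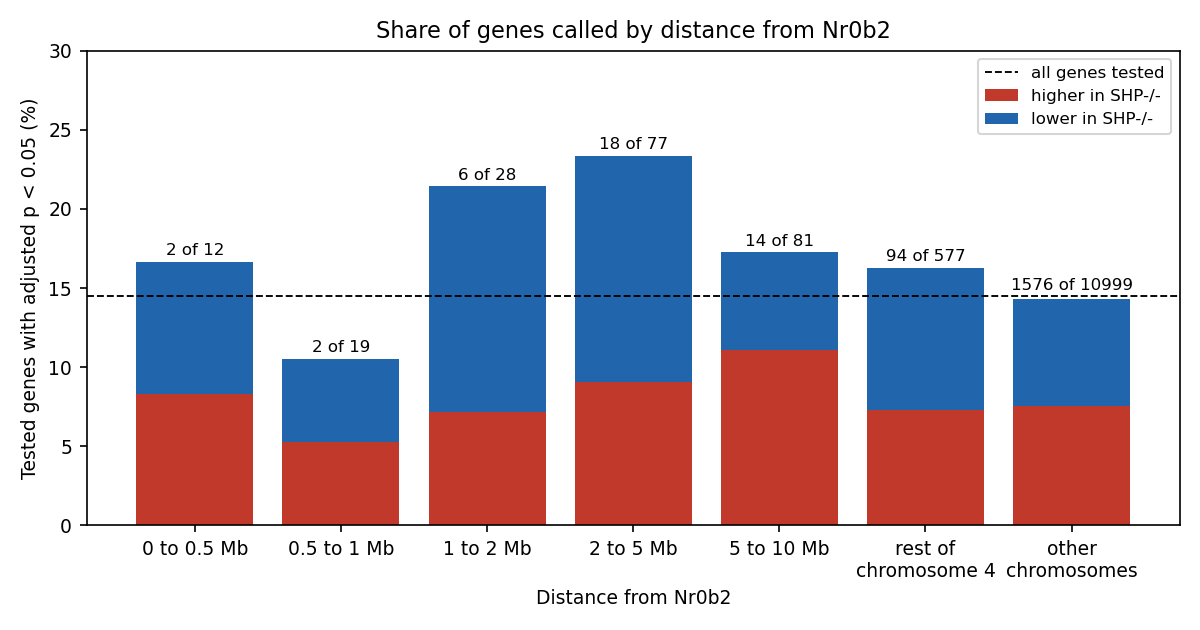
Share of tested genes with an adjusted p under 0.05, in percent, by distance from Nr0b2, split into genes higher (red) and lower (blue) in SHP-/- liver. Numbers above the bars are genes called of genes tested, and the dashed line marks all genes, 14.5%. The bands inside 2 Mb lie on both sides of the line, between 10.5% and 21.4%.

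By function, calls were spread over several lists, which hold few genes each; over all genes tested, 14.5% were called, 7.58% higher and 6.94% lower. No difference between a list and all genes was tested. Of 8 tested neighbours in glycan, lipid and intermediary metabolism, 2 rose (Extl1 and Mecr), 1 fell (Wdtc1) and 5 were not called. The 5 included Dhdds, which acts in dolichol synthesis, at 38.6 ± 5.37 CPM in SHP-/- livers and 41.3 ± 1.93 CPM in wild-type livers, and Fam54b (now Mtfr1l) at 49.8 ± 4.00 CPM in SHP-/- livers and 64.7 ± 7.78 CPM in wild-type livers (SD, n = 3 each; log2 difference −0.36 ± 0.13, limma voom, adjusted p = 0.0748). Of 9 signalling genes, 2 rose, Rps6ka1 among them, and 7 were not called. The 7 included Paqr7, a membrane progestin receptor gene, which had 43.6, 31.2 and 34.4 CPM in SHP-/- livers and 23.0, 37.0 and 18.1 CPM in wild-type livers, with overlap. Of 6 tested genes of RNA processing, 0 rose, 2 fell (Srrm1 and AL805897.2) and 4 were not called, against 6.94% of all genes called lower. The median log2 difference of these 6 was −0.23, against −0.0064 over all genes.

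Sfrs4 was not on the RNA processing list. D4Wsu53e (now Rsrp1), which encodes an arginine/serine-rich protein and was on no list, was the most abundant neighbour by CPM, at 258, 270 and 279 CPM in SHP-/- livers, against 303, 348 and 320 CPM in wild-type livers (log2 difference −0.26 ± 0.10, limma voom, adjusted p = 0.0897). Syf2, a spliceosome component on the RNA processing list, stood at 37.9 ± 2.26 CPM in SHP-/- livers and 44.1 ± 3.51 CPM in wild-type livers (SD, n = 3 each) and was not called.

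Of 8 tested genes of chromatin and transcription, 0 were called by limma voom, 1 (Rcc1) had an unadjusted p under 0.05, and 6 had log2 differences above 0. Arid1a, a subunit of the SWI/SNF remodelling complex, stood at 42.0, 47.3 and 69.5 CPM in SHP-/- livers and 46.6, 44.5 and 52.9 CPM in wild-type livers. SHP-/- library 3 lay above the wild-type range and SHP-/- library 1 below it. Of 9 tested genes of membrane transport and trafficking, 0 rose, 1 fell (Tmem50a) and 8 were not called. Clic4, a chloride intracellular channel protein gene, was among the 8, with 98.8 ± 11.3 CPM in SHP-/- livers and 84.8 ± 8.72 CPM in wild-type livers (SD, n = 3 each). Tmem57 (now Maco1) was another, at 49.7 CPM on average in SHP-/- livers and 60.6 CPM in wild-type livers, with a log2 difference of −0.26 ± 0.14. Of 3 tested cytoskeletal genes, 1 fell (Ccdc21) and 2 were not called. Of 3 tested genes in protein folding and DNA repair and 3 in a list named for translation (Nudc, Gpatch3 and Gpn2), 0 were called by limma voom, and 2 (Rcc1 and Gpatch3) had an unadjusted p under 0.05. Nudc, Gpatch3 and Gpn2 are not themselves ribosomal proteins. Among 9 tested neighbours in none of the lists, 1 fell (Sfrs4); Pafah2, a platelet-activating factor acetylhydrolase, stood there at 97.8 ± 7.61 CPM in SHP-/- livers and 89.7 ± 11.6 CPM in wild-type livers (SD, n = 3 each).

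Several neighbours are known from blood cells, and none of those tested was called. Of 6 leukocyte-expressed genes, 3 were tested: Fgr, a Src-family kinase gene of myeloid cells, BC013712 (now Themis2) and Cd52. Cd52, a surface glycoprotein of lymphocytes, had 1.14, 4.91 and 0.805 CPM in SHP-/- livers, against 3.75, 4.36 and 3.02 CPM in wild-type livers (log2 difference −1.17 ± 0.55, limma voom, adjusted p = 0.166), and overlaps Aim1l on the other strand. SHP-/- library 2 was the highest of all 6 and the other SHP-/- libraries were the lowest. Of 8 general leukocyte markers 7 were tested and 1 (Lcp1) fell, and their summed level was 114 to 136 CPM in SHP-/- livers and 157 to 173 CPM in wild-type livers. Lcp1 carried that gap: the other 7 markers summed to 34.0, 54.4 and 44.0 CPM in SHP-/- livers and 51.7, 46.8 and 41.5 CPM in wild-type livers, which overlap. Tyrobp and Coro1a had log2 differences above 0, at 0.57 ± 0.27 and 0.60 ± 0.41, and were not called. The 6 T and B lymphocyte markers were all too low to test. They summed to 0.786 to 2.51 CPM in SHP-/- livers and 3.49 to 3.92 CPM in wild-type livers. Cd3e had 0 counts in every SHP-/- library and 2, 0 and 2 in wild-type libraries. Cd3g went the other way, with 2, 4 and 0 counts in SHP-/- livers and 2, 0 and 1 in wild-type livers. Of 7 Kupffer cell and macrophage markers tested, 1 (Marco) was higher, with sums of 289 to 451 CPM in SHP-/- livers and 303 to 360 CPM in wild-type livers. Of 3 cholangiocyte markers tested 0 were called, and the 5 filled ones summed to 31.3 to 61.3 CPM in SHP-/- livers and 47.0 to 50.2 CPM in wild-type livers. The part of these cells in the levels of Cd52 and the other genes was not tested, and in whole liver fewer cells of a type and less RNA per cell cannot be told apart.

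Epb4.1, which encodes protein 4.1 of the red cell membrane skeleton and is also expressed elsewhere, was abundant, with 204, 157 and 152 CPM in SHP-/- livers and 182, 187 and 178 CPM in wild-type livers. The groups overlapped and the log2 difference was −0.11 ± 0.12. Rhd, a blood group gene of red cells, had 0, 0 and 3 counts in SHP-/- livers and 7, 2 and 8 in wild-type livers and was too low to test. The 7 erythroid markers, of which 0 of 5 tested were called, summed to 195 to 333 CPM in SHP-/- livers and 195 to 222 CPM in wild-type livers. Their part in the level of Rhd was not tested.

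Per kilobase of the region length deposited for each gene, D4Wsu53e was again the highest, at 88.5 CPM per kb over all 6 libraries, and Tmem50a was at 57.0. Extl1 was at 5.17 in SHP-/- livers and 0.534 in wild-type livers. Rps6ka1 was at 6.62 CPM per kb in SHP-/- livers and 2.77 in wild-type livers. The median over the 59 tested neighbours was 4.87 CPM per kb, and over all genes tested 5.96.

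A further 8 neighbours had an unadjusted p under 0.05 and did not pass after adjustment, among them Fam54b, Gpatch3, D4Wsu53e, Paqr7, Rcc1, Pdik1l and Sepn1. Sepn1 (now Selenon), a selenoprotein gene of muscle and endoplasmic reticulum, had 9, 17 and 30 counts in SHP-/- livers, against 8, 10 and 6 counts in wild-type livers, a log2 difference of 1.19 ± 0.49. Pdik1l, a kinase gene, had 11.4, 13.9 and 14.2 CPM in SHP-/- livers, against 17.7, 17.5 and 18.3 CPM in wild-type livers. Of the 49 tested neighbours that were not called, 22 had a log2 difference smaller than 0.25 in size.

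The 38 neighbours that were not tested held 1 to 70 counts over the 6 libraries. With no low-count filter 11 of 97 were called (11.3%), against 7.48% of all genes, and A330049M08Rik and Stmn1 gained a call. A330049M08Rik (now Ncmap), a myelin-associated protein gene, had 0 counts in every SHP-/- library and 6, 3 and 3 in wild-type libraries. Stmn1, which encodes the tubulin-binding protein stathmin, had 0, 0 and 3 counts in SHP-/- livers and 4, 8 and 6 in wild-type livers. Both rest on few counts.

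The share of calls over all genes moved with single libraries. Without wild-type library 3 there were 621 calls over all genes and 9 among 61 tested neighbours. Without SHP-/- library 1 the shares were 8.68% of all genes and 8 of 63 neighbours (12.7%). Over the 6 fits without 1 library, 8 or 9 neighbours were called.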

How the data were processed

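Cap-selected liver RNA of 6 mice was barcoded, with 3 samples in each lane, and read from both ends for 36 cycles, per the labels' protocols. The submitters' processing notes name Novoalign 2.05.33 and the build mm9. How genes were counted, and whether by strand, is not stated there or in the labels. The authors deposited raw counts per Ensembl gene and library, and a log2 ratio of the pooled groups; neither gives molecules, so precision covers counting and library spread only. The table's 33495 genes included 13901 with empty cells, 4840 of them on lines that end early. An automated check of units reads those as text, so the counts were recorded under a general unit and count models were not run. Start coordinates were raised by 1. Later names came from a GRCm38 annotation, matched for 94 of 97 neighbours.

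Genes reaching 1.83 CPM (10 counts at the median total) in at least 3 libraries and 15 counts in all were tested (11794). Fits without 1 library asked for 10 counts at their median total in fewer libraries, so their tested sets differed. Library totals were multiplied by trimmed-mean factors (TMM, 0.966 to 1.03), and log2 CPM, with 0.5 added to counts, were fitted with limma 3.58.1 (voom, eBayes) in R 4.3.3, genotype being the only term, with Benjamini-Hochberg adjustment over all tested genes. The steps were tested on simulated data. Python 3.11.15, pandas 2.3.3 and matplotlib 3.10.9 were also used. Same-numbered SHP-/- and wild-type libraries are not said to share a litter, day or lane. The window, the 9 function lists, the marker lists and the rule for named genes (called neighbours, the 5 nearest on each side, the 10 most abundant) were chosen with earlier results of these data known. Counts cover all neighbours; not every neighbour is described singly, and some results are not reported here. Alternatives changed the test, variance moderation, sample weights, scaling, low-count filter, window and libraries.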

Additional observations from a re-analysis of the deposited data

How the results depend on the processing

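The fit of all libraries called 4 neighbours higher and 6 lower. The same counts came from limma trend, robust variance moderation, median-of-ratios scaling, a stricter filter, no mitochondrially encoded genes, and start positions instead of midpoints. With the stricter filter these were 10 of 42 tested neighbours (23.8%), against 18.9% of all genes. In the other settings they were 10 of 59 (16.9%), against 14.5% to 15.8% of all genes. Sample quality weights gave 3 and 6 (15.3% of 59, against 15.7% of all genes). No low-count filter gave 3 and 8 (11.3% of 97, against 7.48% of all genes). Within 1 Mb the counts were 2 and 2 of 31 tested (12.9%, against 14.5% of all genes). The median log2 difference there was −0.0057, by construction from fewer genes. A requirement of at least 2-fold, added after the data were seen, left 2 higher and 1 lower (5.08%, against 3.19% of all genes). Without 1 library, 3 to 4 neighbours were called higher and 5 to 6 lower, in all 12.7% to 14.8% of those tested. The median log2 difference of tested neighbours ran from −0.13 to −0.08. Calls over all genes ran from 621 to 1567 (5.16% to 13.1%). With the replicate number as a block (replicate block), 4 neighbours were called higher and 6 lower (16.9% of 59). Over all genes, 1779 were called (15.1%). Deviations of same-numbered libraries correlated at −0.0244 to −0.0187, so the numbers were not taken to pair the mice. The call of Nr0b2 itself was lost under that block (adjusted p = 0.0553) and with no low-count filter (adjusted p = 0.0667).

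Among the named genes, signs changed for 3, none of them called. Nudc, at −0.0057, was at 0.0138 with limma trend, 0.000356 with median-of-ratios scaling, 0.00137 with no low-count filter, 0.00939 with the replicate block and 0.0148 with sample quality weights, and ran from −0.0747 to 0.0691 without 1 library. In those fits Zdhhc18 ran from −0.166 to 0.0551 and Arid1a from −0.101 to 0.280; the cause was not tested. Low totals, of 1 to 70 counts over the 6 libraries, limit what could be detected for the 38 untested neighbours.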
